A study of Mus musculus with 6 samples.

Results

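The genes Cyfip2, Ndrg4, Dusp26, Fzd9, Pdzrn3, Cd24a, Clu, Cpe and Pcp4l1 were followed in the soleus (Sol) muscle after voluntary wheel running (VWR), in mice with LSD1 (WT, wild type) and without it in muscle fibers (LSD1-mKO). They are 9 of the 24411 genes listed in the deposited table, and they were found in it by symbol. They were picked from these same libraries as well-measured genes that were higher in LSD1-mKO, with little or no overlap between the genotypes, and that fall outside oxidative metabolism. Their difference between the genotypes is therefore a description and not a test. All 9 also belong to the cluster of genes that the study's k-means grouping set apart as upregulated in LSD1-mKO, a list likewise chosen on these samples.

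The study asked which genes depend on LSD1 in trained slow muscle. LSD1, encoded by Kdm1a, is a histone demethylase. The series holds 3 WT and 3 LSD1-mKO C57BL/6 mice, with 1 poly(A) RNA library of whole Sol per mouse and no sedentary mice. LSD1-mKO mice carried Lsd1 flox/flox alleles and a CreERT2 transgene under the ACTA1 promoter, which is active in skeletal muscle fibers, so that the other cells of the tissue keep LSD1. The WT controls were floxed mice without the transgene that also received tamoxifen. The mice were 8 weeks old at the start, had a wheel for 38 days, and received tamoxifen at 75 mg/kg on 5 days after 3 days of familiarization. Their running was recorded over the next 30 days.

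The 9 genes belong to different families, among them surface receptors, regulators of actin and of kinases, and secreted proteins. Frizzled receptors carry Wnt signals into the cell, and at the neuromuscular junction Wnt ligands act beside agrin, which clusters acetylcholine receptors through the kinase MuSK. The WAVE complex turns signals of the GTPase Rac into branched actin filaments, dual-specificity phosphatases remove phosphate from MAP kinases, and carboxypeptidases of the secretory granules trim hormone precursors.

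Promoter windows, the 250 bases before an annotated transcription start, were available from RefSeq (GRCm38.p6) for 5 of the 9 genes, with 4 windows for Ndrg4 and 1 each for Cyfip2, Fzd9, Pcp4l1 and Pdzrn3. Dusp26, Cd24a, Clu and Cpe had no entry. A few windows are shown, because the genes were all higher in LSD1-mKO while these sequences differ in kind. They run from GC-rich windows with an E-box to one with a TATA element and one with none of the motifs marked. Each is written 5′ to 3′ on the strand of the gene, and capitals mark the E-box CACGTG, the TATA element TATAAA, and the GC box, which is spelled GGGCGG on the strand shown or on the other one.
Fzd9, chr5:135251048-135251297, minus strand: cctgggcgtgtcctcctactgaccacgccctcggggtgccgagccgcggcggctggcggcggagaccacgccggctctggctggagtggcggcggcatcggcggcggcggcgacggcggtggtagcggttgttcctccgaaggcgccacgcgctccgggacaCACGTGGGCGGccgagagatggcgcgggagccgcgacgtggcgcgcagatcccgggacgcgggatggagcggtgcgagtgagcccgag
Ndrg4, window 2, chr8:95677513-95677762, plus strand: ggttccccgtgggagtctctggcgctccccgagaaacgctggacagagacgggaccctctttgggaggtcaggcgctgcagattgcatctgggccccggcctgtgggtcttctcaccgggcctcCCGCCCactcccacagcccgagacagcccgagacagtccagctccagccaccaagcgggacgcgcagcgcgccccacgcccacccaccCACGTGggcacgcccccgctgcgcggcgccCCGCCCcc
Ndrg4, window 4, chr8:95702806-95703055, plus strand: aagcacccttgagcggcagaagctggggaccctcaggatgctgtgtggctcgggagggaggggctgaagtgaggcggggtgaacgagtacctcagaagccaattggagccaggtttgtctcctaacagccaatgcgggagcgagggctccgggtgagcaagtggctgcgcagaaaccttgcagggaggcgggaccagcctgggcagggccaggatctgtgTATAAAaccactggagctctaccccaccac
Pcp4l1, chr1:171196269-171196518, minus strand: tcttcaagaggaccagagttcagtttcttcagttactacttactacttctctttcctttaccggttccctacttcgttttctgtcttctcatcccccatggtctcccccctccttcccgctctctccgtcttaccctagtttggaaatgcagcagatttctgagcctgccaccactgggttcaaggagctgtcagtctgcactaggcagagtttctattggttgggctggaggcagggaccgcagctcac

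The E-box CACGTG lay 88 to 83 bases before the Fzd9 start and 38 to 33 bases before start 2 of Ndrg4, so 2 of the 8 windows held it, against 6.02% of 32851 windows of the same length. In Fzd9 its last base is also the first of a GC box. These distances are from RefSeq starts, whereas the gene positions given below are from another annotation (GENCODE vM21). By those positions, the E-box and GC box of Fzd9, the whole Cyfip2 window and windows 2 to 4 of Ndrg4 lie inside the gene. The TATA element, found in 12.4% of all windows, lay 30 to 25 bases before start 4 of Ndrg4 and in no other of the 8. The GC box was in 4 of the 8, windows 2 and 3 of Ndrg4 and those of Fzd9 and Pdzrn3, and in 32.7% of all windows. Both strands were searched for each motif. The GC content was 76.4% in Fzd9, 69.2% in Pdzrn3, 66.4% in Cyfip2, from 56% to 73.6% in the windows of Ndrg4 and 51.6% in Pcp4l1, with a median of 52.4% over all windows. The motif AAGGTCA, the binding sequence of estrogen-related receptors, was in 0 of the 8 windows and in 4.08% of all, and its extended form, spelled TCAAGGTCA, was in 0 of the 8 and in 0.387% of all. At such low shares, 0 of 8 windows does not show that these genes lack the site. The study reported the motif of ERRγ, one of these receptors, as enriched in the whole cluster, and it searched far longer stretches around the starts. The E-box CAGCTG of myogenic factors was in 0 of 8 and in 13% of all, and of the parts of the site of the repressor REST, TTCAGCACC was in 0 of 8, against 0.301% of all windows, and the other part, spelled GGACAGC, was in 0 of 8, against 5.28%. A match here is a run of letters and not a shown site. Of the 8 windows, 4 belong to Ndrg4, and the windows set beside them were not matched for GC content. No excess or lack of a motif is therefore read from these shares. The count table gives 1 value per gene, so it does not say from which Ndrg4 start the reads came.

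Levels are given as TMM CPM, which are counts per fixed library total (CPM) after scaling by edgeR's trimmed mean of M-values (TMM), and differences as log2 fold changes of LSD1-mKO over WT from the edgeR fit over 12828 genes. Values of single libraries are given in the order of replicates 1 to 3. Totals ran from 8940206 to 10989846 estimated counts in WT and from 10984664 to 13798059 in LSD1-mKO. The targeted gene Kdm1a was at 40.5, 38.2 and 33.6 CPM in the WT libraries and at 14.6, 16.6 and 16.6 CPM in the LSD1-mKO libraries, each lower than every WT library (log2 fold change -1.23, standard error 0.11, edgeR adjusted p = 0.016). With 1 library left out that adjusted p ran from 0.0334 to 0.209 and was above 0.05 in 4 of 6 fits. The tissue was muscle by its markers: 6 skeletal muscle genes summed to 66400 to 86200 CPM in WT and 75000 to 78100 in LSD1-mKO, and slow fiber genes to 36700 to 45800 and 39900 to 48600. In bulk tissue, fewer cells of a type and less RNA per cell cannot be told apart.

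The levels in LSD1-mKO exceeded those in WT, in all 3 libraries against all 3, for 9 of the 9 genes, where 6.63% of all genes tested were separated in that way. Nothing is read from this count, since the genes were picked for it. Their log2 fold changes ran from 0.43 for Cpe to 1.05 for Cyfip2 with a median of 0.68, beside a median of -0.02 over all genes tested, and 3 of the 9 were among the 100 highest of the whole table. With edgeR 0 of the 9 passed an adjusted p under 0.05 in the upward direction, as did 0.0078% of all genes, and 9 had an unadjusted p under 0.05, as did 3.52% of all. With DESeq2 7 of the 9 passed the adjusted threshold, all but Cyfip2 and Clu, beside 0.262% of the genes for which it gave an adjusted p. The genes were picked on this same contrast, so nothing is read from these counts either. Within the study's cluster, 8 of the 9 were among the 20 highest log2 fold changes, and the median of the other genes of that list was 0.21. This standing also restates how the genes were picked.

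**Figure D1:**
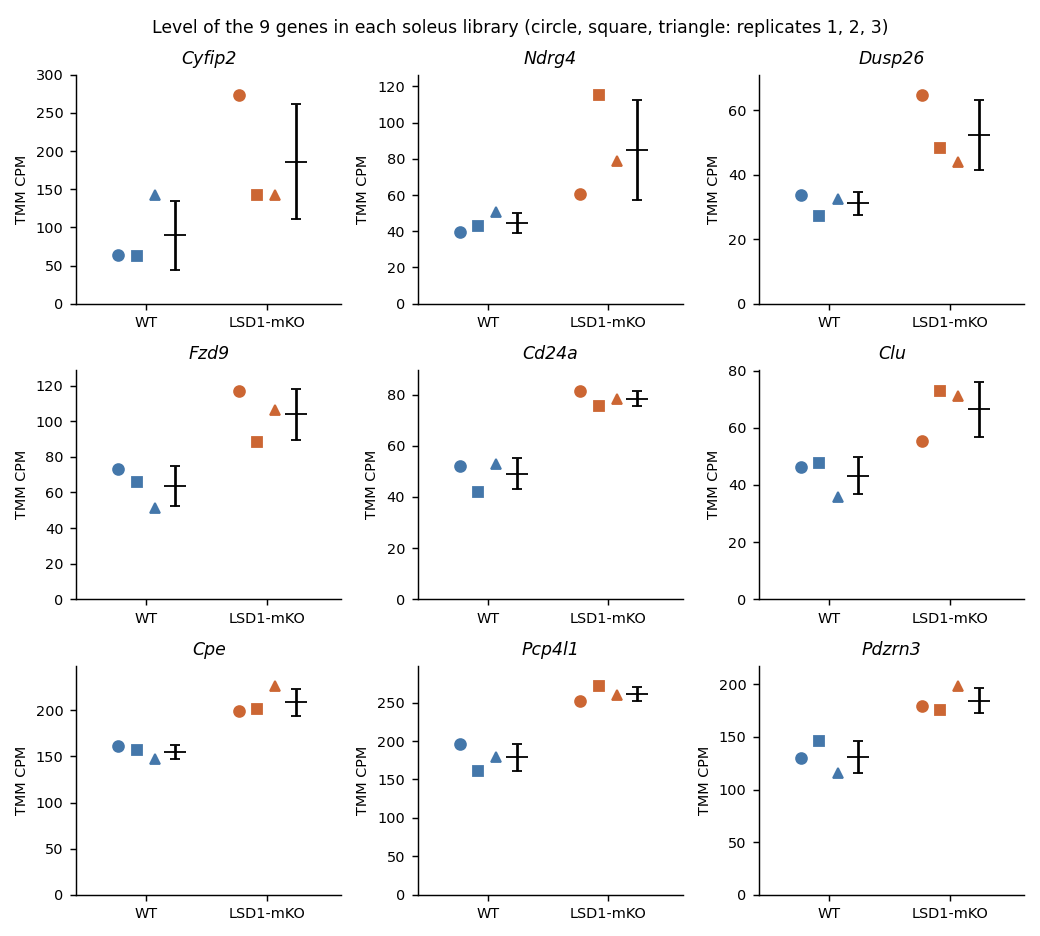
Level of each gene in TMM CPM (vertical axis, from 0) in the 3 WT and 3 LSD1-mKO libraries. Points are libraries, with the marker shape giving the replicate, and bars are the mean ± SD (n = 3). In each panel the 3 LSD1-mKO points lie above the 3 WT points, by 0.31% in Cyfip2 and by 42.7% in Cd24a.

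Fzd9 is a Frizzled receptor for Wnt ligands, and its gene occupies bases 135248938 to 135251230 of chromosome 5 in GRCm38, the build of all gene positions given here. Its levels were 73.2, 65.9 and 51.3 CPM in WT and 117, 88.4 and 106 CPM in LSD1-mKO replicates 1 to 3. The lowest LSD1-mKO library was 1.21 times the highest WT library, and the spread was alike in both genotypes, with a coefficient of variation of 17.6% in WT and 13.7% in LSD1-mKO. The means were 63.4 ± 11.2 and 104 ± 14.3 CPM (SD, n = 3), a log2 fold change of 0.71 with a standard error of 0.15, or 1.64-fold. Per transcript length, as TPM (counts per base of transcript scaled to one sum per library), Fzd9 stood at 61.3 ± 9.61 TPM in WT and 99.8 ± 13.4 TPM in LSD1-mKO (SD, n = 3), above 87.4% of the genes.

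Most other Frizzled receptors were fitted below 0. Of 13 other receptors and co-receptors tested, 2 had a fitted log2 fold change above 0 and the median was -0.10. Fzd4, a receptor of endothelial and other cells, measured 143, 141 and 160 CPM in WT and 105, 116 and 104 CPM in LSD1-mKO, so its groups were separated in the direction opposite to Fzd9. Its log2 fold change of -0.44 (standard error 0.09) had an adjusted p of 0.34 in edgeR and 0.0488 in DESeq2. Fzd5 was at -0.54 (standard error 0.25, edgeR adjusted p = 0.766). It measured 13.6, 7.02 and 7.91 CPM in WT and 6.14, 6.88 and 6.33 CPM in LSD1-mKO. Its groups did not overlap either, and WT replicate 1 stood apart as the highest. Fzd7 was at -0.27 with an edgeR adjusted p of 0.872, again with WT replicate 1 highest at 54.5 CPM, and it turned to 0.14 without that library. The co-receptors Lrp5 and Lrp6 were at -0.09 and -0.16. Per length, Fzd4 averaged 49 TPM in WT and 35.7 TPM in LSD1-mKO, below the mean of Fzd9 in both genotypes. In WT the 2 means were not far apart beside the spread of Fzd9, at 61.3 ± 9.61 TPM (SD, n = 3).

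Among 20 Wnt signal transducers and target genes, 9 were fitted above 0 and the median was -0.03. Dvl1, an adaptor that binds activated Frizzled receptors, averaged 147 CPM in both genotypes and had a log2 fold change of 0 with a standard error of 0.09. Sfrp4 and Dkk2, secreted inhibitors of Wnt signals, were at -0.60 and -0.47 with edgeR adjusted p of 0.787 and 0.766. Sfrp1 and Sfrp2, of the same family of inhibitors as Sfrp4 and named after their values were seen, were at -0.56 and -2.65, both with an edgeR adjusted p of 0.766. Sfrp2 was low apart from a single library, at 0.482, 1.62 and 19.1 CPM in WT and 1.92, 0.796 and 0.652 CPM in LSD1-mKO, and its log2 fold change was 0.05 without WT replicate 3. Sfrp4 was lowest in WT replicate 1 at 5.3 CPM and highest in WT replicate 3 at 20.7 CPM. The sum of the fibroblast markers given below was lowest and highest in the same libraries, at 1360 and 4480 CPM. The part of fibroblasts in the levels of these inhibitors was not tested.

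Pdzrn3 encodes a ubiquitin ligase with PDZ domains that binds MuSK and acts on the muscle side of the neuromuscular junction. The gene lies on chromosome 6 from 101149609 to 101377897. It measured 130, 146 and 116 CPM in WT and 179, 176 and 198 CPM in LSD1-mKO. The LSD1-mKO libraries lay close together, all of them at or above 1.20 times the highest WT library. The means were 131 ± 15.2 and 184 ± 11.9 CPM (SD, n = 3), a log2 fold change of 0.50 with a standard error of 0.11, or 1.41-fold. Its relatives Lnx1, Lnx2 and Pdzrn4 were at 0.02, 0 and -0.13 with standard errors of 0.18, 0.21 and 0.42, and Pdzrn4 was near the detection limit at 0.482 to 1.51 CPM.

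Of 11 other genes of MuSK, agrin and the acetylcholine receptor, 5 were fitted above 0, with a median of -0.02. Musk itself measured 70.6, 24.3 and 42 CPM in WT and 35.1, 27 and 51 CPM in LSD1-mKO, so its groups overlapped widely around a log2 fold change of -0.27 (standard error 0.36, edgeR adjusted p = 0.906). Colq, the collagen tail that anchors acetylcholinesterase at the junction, was the exception in size. It measured 12.9, 15.1 and 11.4 CPM in WT and 28, 19.2 and 22 CPM in LSD1-mKO, with no overlap. The fitted difference was 0.81 on the log2 scale (standard error 0.17), with an adjusted p of 0.351 in edgeR and 0.0312 in DESeq2. Chrne, the adult subunit of the acetylcholine receptor, was at -0.28 with an edgeR adjusted p of 0.814.

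Cyfip2 encodes a subunit of the WAVE complex that binds Rac and the RNA-binding protein FMRP, and it lies on chromosome 11 from 46193850 to 46312859. It had the highest log2 fold change of the 9 genes and the widest spread. Its levels were 64.3, 62.7 and 142 CPM in WT and 273, 143 and 143 CPM in LSD1-mKO. WT replicate 3 was thus level with LSD1-mKO replicates 2 and 3, and LSD1-mKO replicate 1 stood apart above them. The gap between the genotypes was 0.31% of the highest WT level, and it closed under other scalings: with the upper quartile the highest WT library was at 143.1 CPM and the lowest LSD1-mKO library at 141.6 CPM, and with library size alone they were at 145.8 and 140.1 CPM. The means were 89.7 ± 45.4 and 186 ± 75.2 CPM (SD, n = 3), a log2 fold change of 1.05 with a standard error of 0.37. Without LSD1-mKO replicate 1 it was 0.67, and without WT replicate 3 it was 1.55.

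Actn3, the alpha-actinin of fast fibers, also differed widely among the libraries, at 91.9, 63.6 and 198 CPM in WT and 497, 165 and 341 CPM in LSD1-mKO. As for Cyfip2, WT replicate 3 was the highest of the WT libraries and LSD1-mKO replicate 1 the highest of all, but LSD1-mKO replicate 3 was high for Actn3 alone. The log2 fold change of Actn3 was 1.50 (standard error 0.48, edgeR adjusted p = 0.636). The 11 fast fiber genes together overlapped, with sums of 35600 to 50900 CPM in WT and 38700 to 46000 CPM in LSD1-mKO. Of these 11, Actn3 among them, 5 were fitted as higher in LSD1-mKO, and their median log2 fold change was 0. The part of fiber type in the Cyfip2 levels was not tested.

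Most other parts of the WAVE complex and its partners lay near 0. Of 12 tested, 7 were fitted above 0 and the median was 0.03. Cyfip1, the paralog of Cyfip2 in the same complex, averaged 49.2 ± 3.84 CPM in WT and 46.8 ± 2.84 CPM in LSD1-mKO (SD, n = 3), a log2 fold change of -0.07 (standard error 0.09, edgeR adjusted p = 0.902). Per length Cyfip2 was above Cyfip1 in both genotypes, at 30.1 ± 15.7 against 17.1 TPM in WT and 61.7 ± 24.5 against 16 TPM in LSD1-mKO. Abi2, an adaptor of the complex, measured 14.7, 13.4 and 16.5 CPM in WT and 20.8, 16.9 and 21.8 CPM in LSD1-mKO. Its groups did not overlap, and its log2 fold change of 0.41 (standard error 0.14) had an edgeR adjusted p of 0.671. Nckap1l, the blood cell form of a WAVE complex subunit, was at -0.56 with an edgeR adjusted p of 0.815, and ran from -0.89 without WT replicate 1 to -0.14 without WT replicate 2.

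Ndrg4, a member of the NDRG family known from heart and brain, lies on chromosome 8 from 95676980 to 95715119. It measured 39.7, 43.1 and 50.6 CPM in WT and 60.4, 115 and 79 CPM in LSD1-mKO. The WT libraries were close together and the LSD1-mKO libraries were not, with coefficients of variation of 12.5% and 32.8%. LSD1-mKO replicate 2 was the highest and LSD1-mKO replicate 1 the lowest of the LSD1-mKO libraries. The means were 44.4 ± 5.56 and 84.8 ± 27.9 CPM (SD, n = 3), a log2 fold change of 0.93 with a standard error of 0.22, which was 0.65 without LSD1-mKO replicate 2 and 1.13 without LSD1-mKO replicate 1.

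The rest of the NDRG family lay near 0. Ndrg1, Ndrg2 and Ndrg3 had log2 fold changes of -0.06, 0.08 and 0.18 with standard errors of 0.16, 0.16 and 0.15, and their edgeR adjusted p were 0.955, 0.935 and 0.854. Ndrg1 and Ndrg2 took the other sign when a single library was left out. Ndrg2 was by far the most abundant per length, at 2010 TPM in WT, where Ndrg4 was at 32 ± 5.38, Ndrg1 at 44.7 and Ndrg3 at 22.3 TPM. In LSD1-mKO, Ndrg4 at 60.4 ± 20 TPM stood beside Ndrg1 at 42.6 TPM, within the spread of Ndrg4 between mice.

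Dusp26, a dual-specificity phosphatase known to act on MAP kinases, lies on chromosome 8 from 31089471 to 31097047. Its levels were 33.8, 27.2 and 32.4 CPM in WT and 64.7, 48.4 and 44.1 CPM in LSD1-mKO. LSD1-mKO replicate 1 was the highest, and the lowest LSD1-mKO library was 1.31 times the highest WT library. The means were 31.1 ± 3.47 and 52.4 ± 10.9 CPM (SD, n = 3), a log2 fold change of 0.76 with a standard error of 0.16, or 1.69-fold. Without LSD1-mKO replicate 1 the value was 0.58.

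Of 20 other dual-specificity phosphatases tested, 12 were fitted above 0 and the median was 0.05. Dusp18 measured 158, 77.3 and 74.4 CPM in WT and 178, 112 and 166 CPM in LSD1-mKO, with a fitted log2 difference of 0.57 (standard error 0.30, edgeR adjusted p = 0.773), with WT replicate 1 inside the LSD1-mKO range. Dusp1, an early response gene, was at -0.46 with an edgeR adjusted p of 0.767. Of 10 MAP kinases, 7 were fitted above 0, with a median of 0.08 and a range from -0.34 to 0.7. Mapk3, which encodes ERK1, and Mapk7 were at -0.18 and -0.23 with edgeR adjusted p of 0.781 and 0.85.

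**Figure D2:**
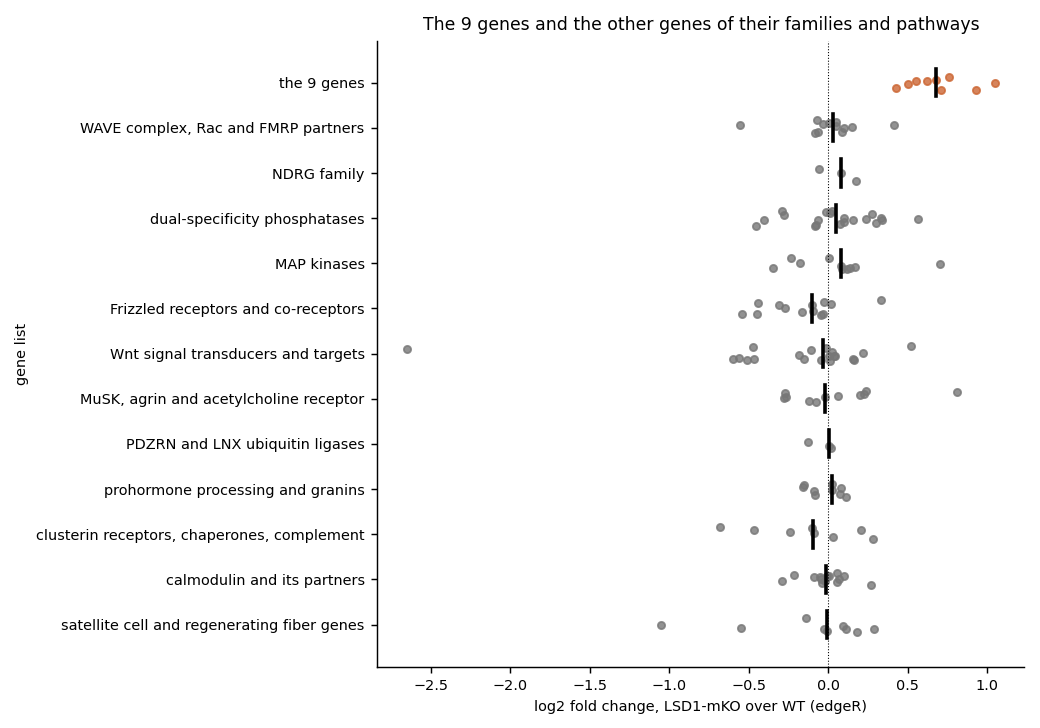
Log2 fold changes of LSD1-mKO over WT (horizontal axis, edgeR) for the 9 genes and for the tested genes of each family or pathway list, 1 point per gene, with the median as a vertical bar. The 9 genes, which were chosen for their values, lie between 0.43 and 1.05, and the list medians lie between -0.10 and 0.08.

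Cd24a encodes a small glycoprotein anchored to the outer face of the membrane by a lipid, found on B cells and other cells and used as a marker of several cell types. Its gene lies on chromosome 10 from 43578284 to 43584265. It measured 52.2, 42 and 53 CPM in WT and 81.5, 75.7 and 78.3 CPM in LSD1-mKO. This was the widest separation of the 9 genes, with the lowest LSD1-mKO library at 1.43 times the highest WT library, and the LSD1-mKO libraries varied by 3.67%. The means were 49.1 ± 6.12 and 78.5 ± 2.88 CPM (SD, n = 3), a log2 fold change of 0.68 with a standard error of 0.11, or 1.60-fold. The estimated counts of Cd24a were not whole in 2 libraries, 466.62 in WT replicate 2 and 596.99 in WT replicate 3, which a tally of whole reads alone does not give.

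B cell markers were near the detection limit. The 3 genes Cd79a, Cd79b and Ms4a1 summed to 0.241 to 1.35 CPM in WT and to 0.145 to 0.592 CPM in LSD1-mKO, and 1 of the 3 had at most 3 counts over all libraries. Satellite cell genes overlapped, with sums of 46.5 to 54.3 CPM in WT and 44.8 to 63.6 CPM in LSD1-mKO. Pax7, which marks these stem cells, was at 2.89 to 5.76 CPM in WT and 3.82 to 5.47 CPM in LSD1-mKO. Of 9 satellite cell and regenerating fiber genes tested, 4 were fitted above 0, with a median of -0.01. The embryonic and perinatal myosins Myh3 and Myh8 were at -0.55 and -1.05 with edgeR adjusted p of 0.818 and 0.794, both with WT replicate 3 highest.

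Clu encodes clusterin, a secreted chaperone that binds unfolded proteins and complement, and lies on chromosome 14 from 65968483 to 65981547. It measured 46.4, 47.5 and 35.7 CPM in WT and 55.5, 72.9 and 71.2 CPM in LSD1-mKO. Unlike Cyfip2, Dusp26, Fzd9 and Cd24a, it was lowest in LSD1-mKO replicate 1 among the LSD1-mKO libraries, and that library was 1.17 times the highest WT library. The means were 43.2 ± 6.53 and 66.5 ± 9.58 CPM (SD, n = 3), a log2 fold change of 0.62 with a standard error of 0.15, or 1.54-fold. Of 8 clusterin receptors, other extracellular chaperones and complement regulators tested, 3 were fitted above 0 and the median was -0.10. Apoe, a lipid carrier that shares receptors with clusterin, measured 104, 220 and 227 CPM in WT and 153, 136 and 110 CPM in LSD1-mKO, with a fitted log2 difference of -0.46 (standard error 0.27, edgeR adjusted p = 0.777). Hp, the hemoglobin-binding haptoglobin, was at 0.28 with an edgeR adjusted p of 0.809.

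Cpe encodes carboxypeptidase E, which trims basic residues from peptide precursors in secretory granules, and lies on chromosome 8 from 64592542 to 64693054. Its levels were 161, 157 and 147 CPM in WT and 199, 201 and 226 CPM in LSD1-mKO. It had the smallest log2 fold change of the 9 genes and also the smallest standard error, and its coefficients of variation were 4.61% in WT and 7.22% in LSD1-mKO. The means were 155 ± 7.15 and 209 ± 15.1 CPM (SD, n = 3), a log2 fold change of 0.43 with a standard error of 0.09, or 1.35-fold. Of 19 other genes of prohormone processing and granins, 9 passed the filter on low counts, and 5 of these were fitted above 0, with a median of 0.02 and a range from -0.16 to 0.11. Cpd, a carboxypeptidase of the Golgi with a like activity, was at 0.02 (standard error 0.10), Cpm at 0.11 and the protease Furin at -0.16, with edgeR adjusted p of 0.971, 0.933 and 0.798. Cpe stood at 163 ± 11.6 TPM in WT and 218 ± 16.5 TPM in LSD1-mKO (SD, n = 3), and Cpd at 36 and 36.3 TPM.

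Pcp4l1 encodes a small protein with an IQ motif like that of the calmodulin regulator Pcp4, and lies on chromosome 1 from 171173262 to 171196268. It measured 196, 161 and 179 CPM in WT and 252, 271 and 260 CPM in LSD1-mKO. The LSD1-mKO libraries varied by 3.53%, the least of the 9 genes, and the lowest of them was 1.29 times the highest WT library. The means were 178 ± 17.6 and 261 ± 9.22 CPM (SD, n = 3), a log2 fold change of 0.55 with a standard error of 0.10, or 1.46-fold. Per length it was the most abundant of the 9, at 251 ± 7.41 TPM in WT and 365 ± 14.3 TPM in LSD1-mKO (SD, n = 3), whereas its relative Pcp4 was at 3.43 and 4 TPM, with 6 to 20 counts per library. Of 14 genes of calmodulin and its partners tested, 6 were fitted above 0 and the median was -0.01. Mylk2, the calmodulin-dependent kinase of fast myosin light chains, and Camk2g were at -0.29 and -0.21, with edgeR adjusted p of 0.781 and 0.766.

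Over all 12 lists, 132 of 162 genes passed the filter on low counts, and edgeR called 0 of them in either direction at an adjusted p under 0.05. At an unadjusted p under 0.05 it found 4 higher (Colq, Dusp13, Abi2 and Gsk3b), beside 3.52% of all genes, and 2 lower (Fzd4 and Sfrp2), beside 2.88%. DESeq2 called 1 higher, Colq, and 1 lower, Fzd4, and limma voom called 0 and 0. The fitted log2 fold change was above 0 for 64 of the 132, against 45.2% of all genes tested, and the median was -0.01 against -0.02 over all genes.

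Per length the 9 genes fell in an order that both genotypes shared in part. In WT, Pcp4l1 led at 251 ± 7.41 TPM, followed by Cpe at 163 ± 11.6, Pdzrn3 at 71 ± 12, Fzd9 at 61.3 ± 9.61, Cd24a at 59.9 ± 5.48, Clu at 53.1 ± 9.03, Dusp26 at 35.6 ± 2.17, Ndrg4 at 32 ± 5.38 and Cyfip2 at 30.1 ± 15.7 TPM (SD, n = 3). Pcp4l1 and Cpe stood clear of their neighbours by more than the spread between mice. From Pdzrn3 to Clu, each gene differed from the next by less than or about that spread, as from Dusp26 to Cyfip2. Pdzrn3 and Clu themselves lay further apart than that. In LSD1-mKO, Fzd9 at 99.8 ± 13.4, Pdzrn3 at 99.1 ± 6.67 and Cd24a at 95.4 ± 3.09 TPM could not be ordered, and neither could Cyfip2 at 61.7 ± 24.5, Ndrg4 at 60.4 ± 20 and Dusp26 at 59.7 ± 12 TPM.

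The 9 genes did not share their highest and lowest libraries. LSD1-mKO replicate 1 was highest for 4 of them, replicate 2 for 3 and replicate 3 for 2, and WT replicates 1, 2 and 3 were lowest for 1, 4 and 4. Cyfip2 in WT replicate 3 was 0.78 above the WT mean on the log2 scale, and Fzd9 deviated by -0.29 in the same library. In LSD1-mKO replicate 1, Cyfip2 deviated by 0.62 and Dusp26 by 0.32, while Ndrg4 deviated by -0.44 and Clu by -0.25. Cpe, Pcp4l1, Pdzrn3 and Cd24a deviated by at most 0.12 in any LSD1-mKO library.

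**Figure D3:**
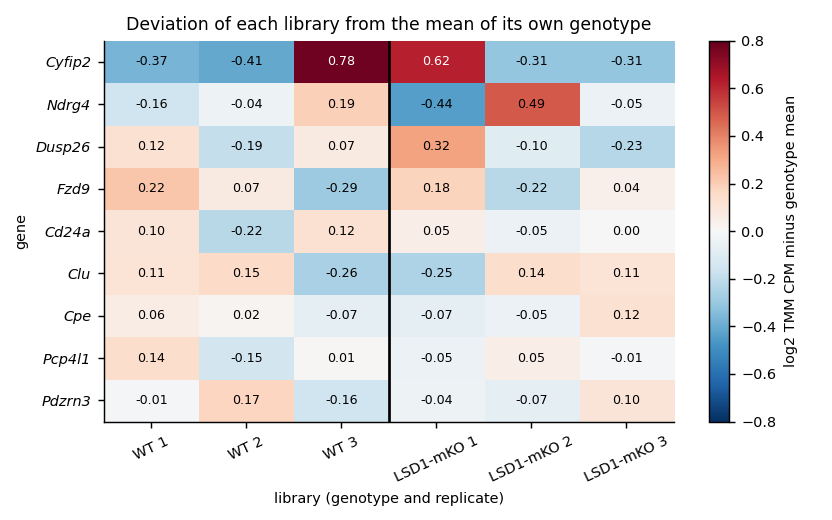
Log2 TMM CPM of each gene in each library minus the mean of its own genotype (color and number), for the 3 WT and 3 LSD1-mKO libraries. Cyfip2 deviates most, at 0.78 in WT replicate 3 and 0.62 in LSD1-mKO replicate 1, and Cpe least.

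Likeness between genes was measured as the root mean square difference between their log2 profiles over the 6 libraries, after each profile was centred on its mean, which describes a pattern that the choice of the genes fixes in part. Among the 9 genes, Cpe and Pdzrn3 were the closest pair at 0.0869, followed by Cd24a and Pcp4l1 at 0.105. Cyfip2 and Clu were the most distant at 0.719. Among all 10211 genes with a mean of at least 5 CPM, the profiles nearest to Cyfip2 were still 0.313 away (Btg3) and 0.314 away (Csdc2). Those nearest to Cpe, Wnk1 and Hspa4l, were 0.0402 and 0.0458 away.

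Nqo1, an enzyme that detoxifies quinones, had the profile nearest to Ndrg4, at a difference of 0.156. It measured 18.4, 23.8 and 19.5 CPM in WT and 26.4, 55.9 and 38.1 CPM in LSD1-mKO, so that LSD1-mKO replicate 2 was highest for both genes. Cdkl2 came next at 0.228. The nearest profiles were those of Samd4 (0.119) and A330074K22Rik (0.146) for Dusp26, and those of St8sia5 (0.0931) and Gm572 (0.099) for Fzd9. For Cd24a they were those of Taf9b (0.0718) and Car2 (0.0762), and for Clu those of Cdk18 (0.0865) and Cln6 (0.087). Hmgn5 (0.0471) and S100a1 (0.0812) were nearest to Pcp4l1, and Gdpd1 (0.0659) and Ociad2 (0.0731) to Pdzrn3. S100a1 encodes a calcium-binding protein of muscle, and it measured 181, 134 and 143 CPM in WT and 225, 214 and 213 CPM in LSD1-mKO.

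Markers of other cell types differed among the libraries, and their part in the levels of the 9 genes was not tested. The sum of 7 fibroblast markers was 1360, 3530 and 4480 CPM in WT and 2870, 1410 and 1550 CPM in LSD1-mKO, and 0 of the 7 were fitted as higher in LSD1-mKO, their median fold change on the log2 scale being -0.51. The 8 leukocyte markers followed, at 105, 324 and 259 CPM in WT and 202, 104 and 149 CPM in LSD1-mKO. WT replicate 1 was thus low in both, as were LSD1-mKO replicates 2 and 3. Between the 3 libraries with a low fibroblast sum, the ratio of LSD1-mKO replicates 2 and 3 to WT replicate 1 had a median of 0.53 on the log2 scale over the 9 genes, and between the 3 libraries with a high sum the median was 0.57. The direction of these ratios is fixed by the choice of the genes, and only their sizes are given. Ndrg4 was at 1.29 in the first and 0.37 in the second, Dusp26 at 0.46 and 1.12, and Fzd9 at 0.41 and 0.99. Clu, Cpe and Pdzrn3 were at 0.63, 0.41 and 0.53 in the first and at 0.41, 0.39 and 0.45 in the second. This split was chosen after the levels were seen, and it leaves 1 library on one side of each ratio.

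**Figure D4:**
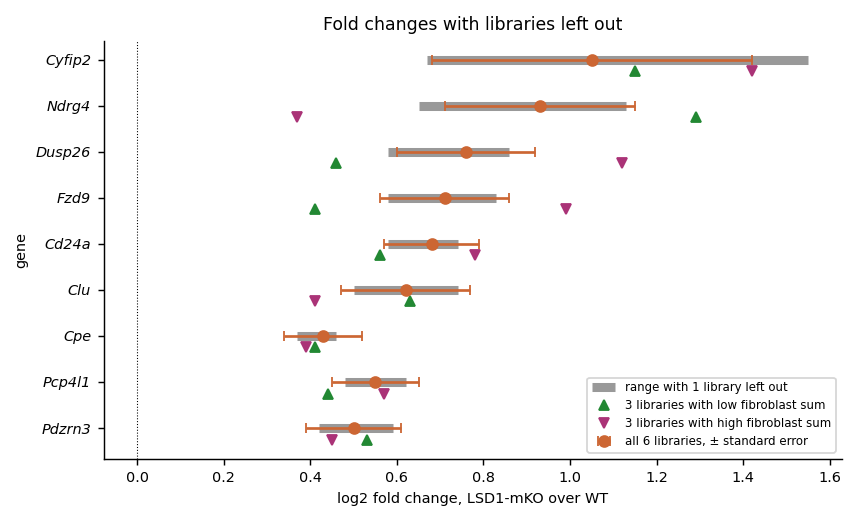
Log2 fold changes of the 9 genes with all 6 libraries (point, ± standard error), the range with 1 library left out (grey bar), and the log2 ratios within the 3 libraries of low (upward triangle) and of high (downward triangle) fibroblast sum. Cyfip2 has the widest grey bar, from 0.67 to 1.55, and Cpe the narrowest, from 0.37 to 0.46. That the values lie above 0 follows from the choice of the genes.

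Nerve and Schwann cell markers bear on Ndrg4, Cyfip2, Cpe and Clu, which are also abundant in nervous tissue. The 8 Schwann cell markers summed to 124 to 141 CPM in WT and 123 to 139 CPM in LSD1-mKO. The 9 neuron markers summed to 7.11 to 11.9 CPM in WT and 7.82 to 15.7 CPM in LSD1-mKO, 5 of them had at most 3 counts over all libraries, and Nefl had 0 or 1 count in each. Endothelial markers overlapped as well, at 598 to 826 CPM in WT and 615 to 729 CPM in LSD1-mKO, with Pecam1 at 149 to 195 and 145 to 180 CPM. Smooth muscle and pericyte markers summed to 606 to 762 and 662 to 734 CPM, adipocyte markers to 537 to 621 and 519 to 610 CPM, and red blood cell markers to 201 to 535 and 260 to 420 CPM. Of the fiber myosins, Myh7 of slow fibers was at a log2 fold change of -0.05 and Myh4 of the fastest fibers at -0.36. Their edgeR adjusted p were 0.967 and 0.868. The slow fiber list leaned the other way from Myh7: the fit put 8 of its 10 genes above 0, around a median of 0.16. Its sums overlapped between the genotypes, at 36700 to 45800 CPM in WT and 39900 to 48600 CPM in LSD1-mKO. The part of slow fibers in the levels of the 9 genes was not tested.

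**Figure D5:**
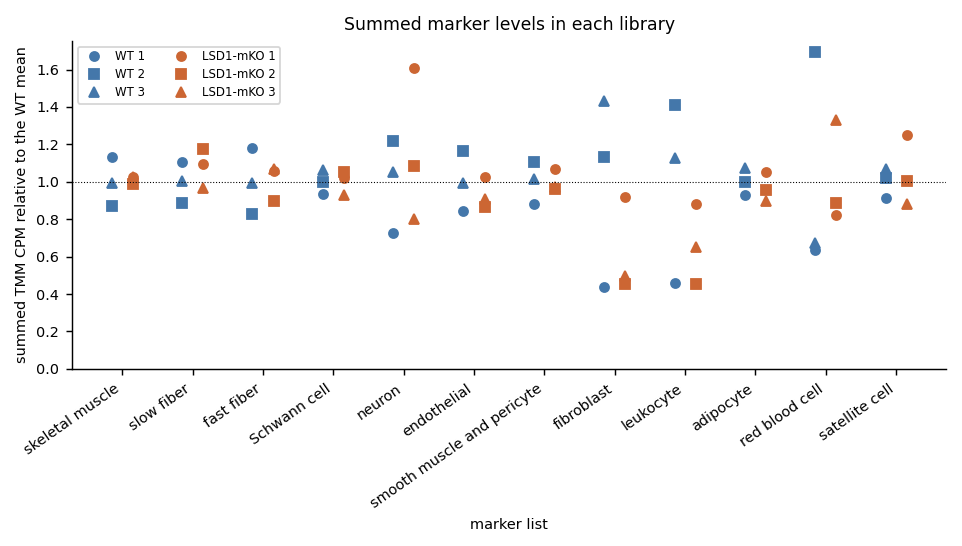
Summed TMM CPM of each marker list in each library, divided by the mean of the 3 WT libraries (vertical axis, from 0; dotted line at 1). Blue points are WT and orange points LSD1-mKO, with the shape giving the replicate. WT replicate 1 and LSD1-mKO replicates 2 and 3 lie low for fibroblast and leukocyte markers, and the genotypes overlap in each list.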

How the data were processed

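Sequencing of Sol poly(A) RNA gave single-end reads of 75 bases. STAR was used by the authors for alignment to mm10. The deposited values are estimated counts for each gene symbol, without normalization, in 1 column per mouse. The counting tool, its annotation and its use of strand are not given in the sources used here. The columns were matched to the mice by the numbers in their headings. Under 10% of the values of a library were not whole. The authors' DESeq2 table (log2 ratios, p and adjusted p) was not used. Columns without a sample numbered 0.

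The estimated counts were rounded and fitted with edgeR 4.0.16 in R 4.3.3 (TMM, filterByExpr by genotype, quasi-likelihood test, Benjamini-Hochberg over all 12828 genes tested, threshold 0.05). DESeq2 1.42.0 and limma 3.58.1 (voom) were alternatives, beside other scalings, filters, the replicate block and each library left out. No pair of libraries was alike as repeated draws would be (chi-square per gene of at least 9.97). The replicates are separate mice. Each standard error is the absolute log2 fold change divided by the square root of the quasi-likelihood F statistic. The fit was tested on simulated data. TPM used the longest coding transcript in GENCODE vM21 (GRCm38, the build of mm10), which also gave gene positions. Of the symbols, 23350 matched directly, 669 by an older symbol and 392 not at all. Counts of amplified reads are not independent molecules.

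The 9 genes, the gene lists and the markers were chosen with earlier results of these data known. Named beside the 9 are Kdm1a, fixed paralogs and partners, up to 2 genes per list with the largest log2 fold change and a mean of at least 5 CPM, the 2 nearest profiles per gene, and 6 markers. A marker gene was left out of each of 2 marker lists and is not reported here. Lrp5, Lrp6, Sfrp1, Sfrp2, Dusp13 and Gsk3b fall outside this rule and were named after their values were seen.

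Same-numbered libraries deviated from their group means with correlations of -0.373, -0.0888 and -0.145 over the genes tested. No sign that the shared numbers pair mice was seen, but correlations of this kind cannot exclude a pairing.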

Additional observations from a re-analysis of the deposited data

How the results depend on the processing

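The log2 fold changes of the 9 genes were recomputed in 144 comparisons with other settings, in which the choice of the genes largely fixes the direction. In 7 of these the value moved by more than the spread between mice, each of them in the split by fibroblast sum. With 1 library left out their median ran from 0.58 without WT replicate 3 to 0.73 without WT replicate 1, and in the split by fibroblast sum it was 0.53 (low) and 0.57 (high). The number without overlap was 8 with upper quartile scaling or with library size alone, Cyfip2 being the exception.

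Over the whole table, 1 gene was called higher and 1 lower. DESeq2 gave 33 and 9, edgeR with no filter gave 8 and 3, and voom gave 2 higher. Leaving out 1 library gave 1 to 2 higher (2 in the fit that dropped WT replicate 1) and 0 to 1 lower. Of the family and pathway genes, DESeq2 called 1 higher and 1 lower, where edgeR called 0 and 0. At an unadjusted p, 2 to 9 of them were higher and 2 to 12 lower when 1 library was dropped, with 9 and 12 in the fit that dropped WT replicate 1. What causes these differences between settings was not tested.

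A fit with the replicate number as a block called 0 genes lower, and Kdm1a, at -1.23, then had an adjusted p of 0.299. The block uses degrees of freedom, and it changed no other call named here. The Kdm1a call was also lost without WT replicate 2 (adjusted p = 0.116) and without LSD1-mKO replicate 1, 2 or 3 (0.111, 0.143 and 0.209). These fits have fewer samples, and over all 6 of them its log2 fold change ran from -1.3 to -1.17.

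Log2 fold changes near 0 took the other sign in some settings. With library size alone, Lnx1 was at -0.01, Lnx2 at -0.03 and Dvl1 at -0.02. With upper quartile scaling, Lnx2 and Dvl1 were at 0, and with voom Lnx2 was at -0.01. With 1 library left out, the values ran from -0.27 to 0.06 for Ndrg1, -0.02 to 0.25 for Ndrg2, -0.44 to 0.14 for Fzd7, -0.05 to 0.12 for Cpd, -0.11 to 0.19 for Lnx1, -0.17 to 0.22 for Lnx2 and -0.44 to 0.11 for Pdzrn4. They ran from -0.58 to 0.18 for Musk, -0.04 to 0.06 for Dvl1, -0.04 to 0.33 for Cpm, -0.88 to 0.02 for Myh3, -0.61 to 0.15 for Myh4, -0.14 to 0.06 for Myh7, -0.17 to 0.02 for Lrp5 and -3.29 to 0.05 for Sfrp2. Of the 2 nearest profiles of each gene, 18 in all, 3 were the same with Pearson's correlation as the measure and 7 with a minimum mean of 20 CPM.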
